A study of Mus musculus with 4 samples.

Results

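Aqp8, Lman1l, Tceal7 and Atp6v0a4 are 4 of the 21659 mouse genes that could be named on the arrays of a pressure overload study, and they were selected on their signal ratio: a probe of each read over 4-fold higher after transverse aortic constriction (TAC) at both times examined. All 6 probes designed on RefSeq transcripts of these genes were examined, whether or not they rose. Since the members were chosen by the ratios of TAC over sham, those ratios are given below as a description of these RNA pools.

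The study asked which transcripts increase while the mouse heart remodels under pressure overload. Hearts of male C57BL/6J mice were taken 2 weeks or 8 weeks after TAC, in which the aortic arch is narrowed so that the left ventricle pumps against a raised pressure, or after a sham operation. The methods place surgery at 12 weeks of age, whereas the labels give 10 weeks of age for both groups at 2 weeks and 16 weeks for both groups at 8 weeks. Each of the 4 conditions was read on 1 single-color array holding a pool of RNA from 4 to 6 mice, 500 ng from each, so the spread between mice was not measured, no p-value was computed, and every fold change is a ratio of 2 pools. Signals below are relative signals, the processed signal of a probe divided by the 75th percentile of its array. Changes are compared within a probe. Signals of different probes are set together only in sums over marker lists and in picking the probe with the highest signal. Such a sum is weighted to its brightest probes and serves as a description. The 6 markers of ventricular cardiomyocytes were well above background on every array, with a summed relative signal between 5956 and 7074, and all 5 genes of a hypertrophy list (Nppa, Nppb, Myh7, Acta1 and Ankrd1) were over 2-fold higher after TAC at both times. Between 54.7% and 58.5% of the probes of an array were well above background, and no spot was saturated.

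The members belong to separate systems of the cell. Aqp8 encodes an aquaporin, a membrane channel that passes water and also small molecules such as hydrogen peroxide and ammonia, and it is best known from the epithelia of the gut, pancreas and liver. Lman1l encodes a relative of the mannose-binding lectin Lman1, a receptor that carries newly made glycoproteins from the endoplasmic reticulum (ER) towards the Golgi. Tceal7 belongs to the X-linked Tceal and Bex family of small proteins and has been described in skeletal muscle differentiation. Atp6v0a4 encodes an isoform of the membrane subunit a of the vacuolar proton pump (V-ATPase), known from the acid-secreting intercalated cells of the kidney.

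The sequences just upstream of the start sites of the 4 genes, which lie on 4 chromosomes, are shown as a description. They come from the RefSeq promoter table on GRCm38.p6, 5′ to 3′ on the strand of the gene, and capitals mark matches on either strand to the MCAT element (CATTCC, the site of TEAD factors) and the E-box (CANNTG, the site of basic helix-loop-helix factors). The Aqp8 window at chr7:123462044-123462293 reaches 3 bases into the first exon of a GENCODE transcript, and the Lman1l window at chr9:57620775-57621024 overlaps no annotated gene. The Tceal7 window at chrX:136223791-136224040 lies in an intron of the Tceal7 transcript that starts further upstream. For Atp6v0a4 the whole window from 38124587 to 38124836 of chromosome 6 lies in an untranslated region of the last exon of D630045J12Rik, on the same strand, and only the MCAT match with its flanks is shown, at chr6:38124627-38124652.
Aqp8: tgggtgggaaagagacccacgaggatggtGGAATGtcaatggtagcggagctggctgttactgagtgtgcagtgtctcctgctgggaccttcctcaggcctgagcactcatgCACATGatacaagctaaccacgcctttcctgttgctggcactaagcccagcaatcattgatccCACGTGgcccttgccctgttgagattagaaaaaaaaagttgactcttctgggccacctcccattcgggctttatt
Lman1l: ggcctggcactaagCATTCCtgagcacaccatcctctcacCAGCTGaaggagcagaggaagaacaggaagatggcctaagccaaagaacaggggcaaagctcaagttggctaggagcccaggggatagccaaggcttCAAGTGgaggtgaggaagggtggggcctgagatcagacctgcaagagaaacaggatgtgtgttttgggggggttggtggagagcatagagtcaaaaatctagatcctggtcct
Tceal7: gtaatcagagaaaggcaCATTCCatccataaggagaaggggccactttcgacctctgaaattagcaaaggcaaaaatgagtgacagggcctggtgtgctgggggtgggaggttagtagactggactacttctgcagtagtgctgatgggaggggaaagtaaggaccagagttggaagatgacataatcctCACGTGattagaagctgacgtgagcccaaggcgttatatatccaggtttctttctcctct
Atp6v0a4: acaagttaatCATTCCttaggcctcc

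An MCAT match was present in the 250 bases before the start of 4 of 4 members, compared with 12.6% of 32841 promoter windows of the same length. Counted back from the start site, the match began at base -221 in Aqp8, where it reads GGAATG on the strand of the gene, at -236 in Lman1l, at -233 in Tceal7 and at -56 in Atp6v0a4. An E-box was also present in 4 of 4, compared with 66.2% of all windows. The form CACGTG stood in Aqp8 at -75 and in Tceal7 at -60. How many of all windows hold that form was not counted, so nothing is read from it. None of the members matched the CArG box (1.47% of all windows), the MEF2 site (2.92%), the GATA sequence AGATAA (9.99%) or the NFAT sequence GGAAAA (20.4%). All 6 motifs were searched in all 4 windows. These are matches of letters within one window, and binding was not measured. Whether any motif bears on the change of a member after TAC was not tested.

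After TAC, the channel gene Aqp8 read higher on both of its probes at both times. On probe A_55_P2318584 the relative signal was 1.78 in sham and 6.08 in TAC at 2 weeks, and 2.01 in sham and 14.5 in TAC at 8 weeks. These are 3.42-fold and 7.24-fold, or log2 changes of 1.77 and 2.86 with an error of 0.20 each from the scanner software. On probe A_55_P2078955 the relative signal was 0.0718 in sham and 0.360 in TAC at 2 weeks, and 0.146 in sham and 1.03 in TAC at 8 weeks. Both TAC pools lay above both sham pools on each probe, and all 8 readings were well above background. The folds on the second probe were 5.01 and 7.02, with log2 errors of 0.34 and 0.24. Only this probe passed 4-fold at both times, since the other stayed under it at 2 weeks. As the RNA came from heart tissue and not from sorted cells, 2 sources of a rise cannot be told apart. These are more RNA of a gene per cell and more cells of a type that expresses it.

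Aqp8 also read higher at 8 weeks than at 2 weeks within the TAC pools, by 2.39-fold on A_55_P2318584 and 2.85-fold on A_55_P2078955. The sham pools of these 2 times differed by 1.13-fold on A_55_P2318584, near the spread between spots of one probe at that signal (log2 ratio 0.18, SD 0.10). On A_55_P2078955 they differed by 2.03-fold, a log2 ratio of 1.03 where that SD was 0.33. The log2 change after TAC was larger at 8 weeks than at 2 weeks by 1.08 on A_55_P2318584 and by 0.49 on A_55_P2078955, against spot SDs of 0.13 and 0.35. The probes thus gave nearly the same change at 8 weeks, with a gap of 0.04 on the log2 scale, and differed by 0.55 at 2 weeks. Among 3102 RefSeq transcripts with at least 2 probes well above background on all arrays, 6.48% had a gap at least as large at 2 weeks.

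**Figure D1:**
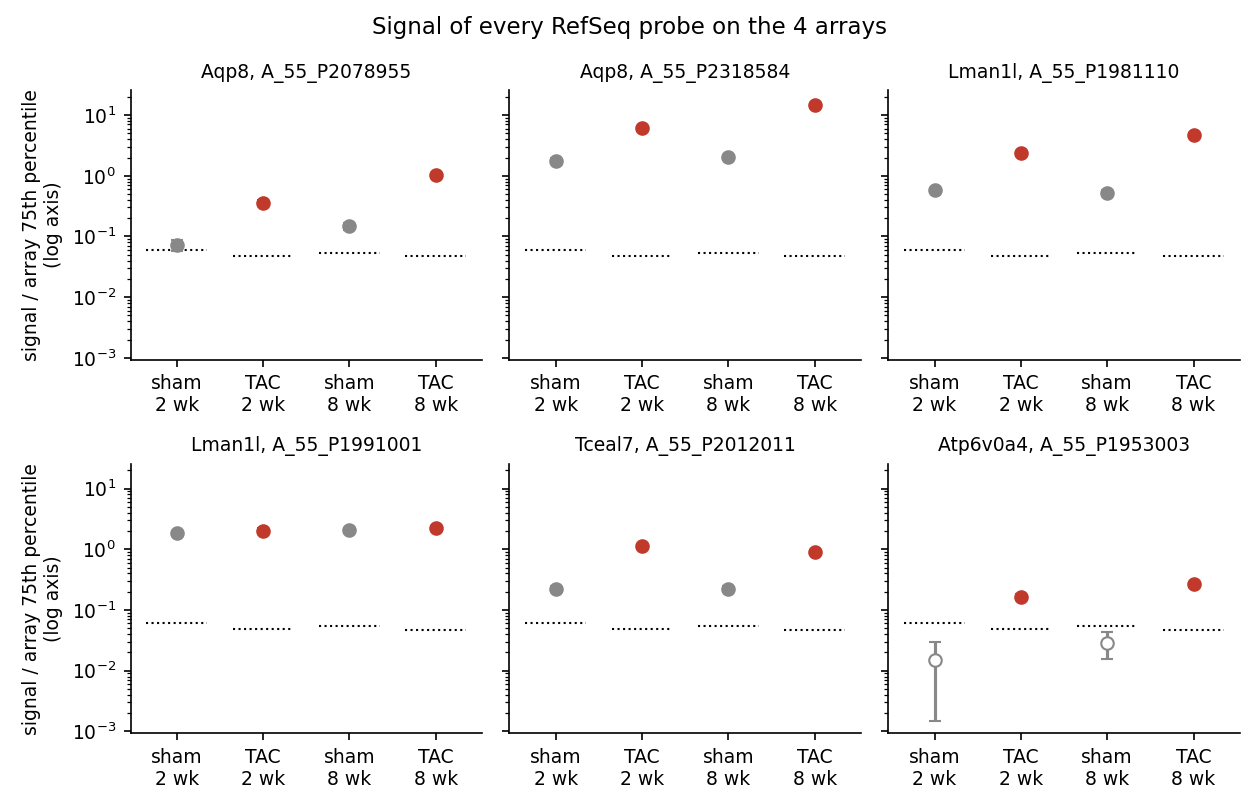
Relative signal (processed signal over the array's 75th percentile, log axis) of each of the 6 RefSeq probes in sham (grey) and TAC (red) pools at 2 and 8 weeks, 1 array per point. Bars are the scanner's error of the spot, drawn short of 0 where they reach it, open circles are not well above background, and dotted lines are the lowest signal well above background; A_55_P1991001 of Lman1l alone stays level, at 1.84 to 2.23.

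For the cargo receptor relative Lman1l, one probe rose and the other stayed nearly level. Probe A_55_P1981110 gave 0.574 in sham and 2.36 in TAC at 2 weeks, and 0.527 in sham and 4.69 in TAC at 8 weeks. The folds were 4.12 and 8.90 (log2 2.04 and 3.15, scanner error 0.21 each). Probe A_55_P1991001 gave 1.84 and 2.00 at 2 weeks and 2.07 and 2.23 at 8 weeks, which are 1.09-fold and 1.07-fold. Its log2 changes of 0.12 and 0.10 are close to the spot SD of 0.10. All 8 readings were well above background.

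The gap between these Lman1l probes was 1.92 at 2 weeks and 3.05 at 8 weeks on the log2 scale, where the median over the 3102 transcripts was 0.14 at either time. Counting Lman1l itself, 6 transcripts had a gap as large at 2 weeks and 1 at 8 weeks, and 1 had both. Because the rising probe was chosen for its rise, this count is a description. GENCODE lists 2 Lman1l transcripts on the minus strand of chr9:57607085-57620774, a coding one of 13 exons and 1685 bases and one of 11 exons and 1489 bases annotated for nonsense-mediated decay. Which exons each probe covers was not analysed here, and whether the probes read different transcripts was not tested. Spots lying around each member's spot on the array, 16 to 24 of them, had a median log2 change between -0.22 and 0.05, and 0 were over 4-fold at either time.

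**Figure D2:**
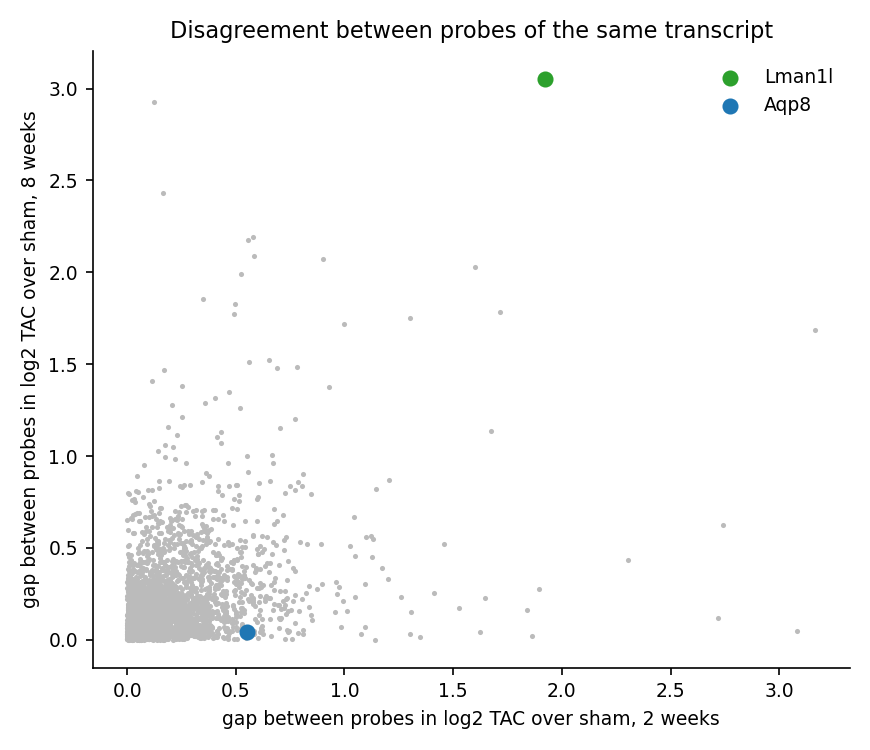
Absolute gap in log2 TAC over sham between the highest and lowest probe of one RefSeq transcript, at 2 weeks (x axis) and 8 weeks (y axis), for 3102 transcripts (grey). Lman1l (green) lies at 1.92 and 3.05, and Aqp8 (blue) at 0.55 and 0.04.

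The rise of Lman1l on A_55_P1981110 was larger at 8 weeks, as it was for Aqp8. The TAC pools differed by 1.99-fold between 8 and 2 weeks, whereas the sham pools differed by a log2 ratio of -0.12, within the spot SD of 0.16. The log2 change after TAC was larger by 1.11 at 8 weeks (spot SD 0.18). On A_55_P1991001 it moved by -0.02.

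Tceal7 rose to a similar extent at both times. Probe A_55_P2012011 read 0.222 in sham and 1.13 in TAC at 2 weeks, and 0.222 in sham and 0.891 in TAC at 8 weeks, all well above background. The folds were 5.10 and 4.01 (log2 2.35 and 2.00, scanner error 0.22 each). The sham pools were level and both TAC pools lay above them. Between 8 and 2 weeks, TAC fell by 0.34 on the log2 scale and the change after TAC moved by -0.35, where the spot SD of that difference was 0.35. The gene lies on the plus strand of chrX:136214779-136226100 with a coding transcript of 3 exons and another of 4 exons that starts further upstream. A further probe, A_55_P2088785, is named by a GENCODE transcript of the gene, and it was not well above background on any of the 4 arrays.

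For the proton pump isoform Atp6v0a4, both sham readings were not well above background, and its rise can only be bounded. The relative signal on probe A_55_P1953003 was 0.0148 in sham and 0.164 in TAC at 2 weeks, and 0.0290 in sham and 0.264 in TAC at 8 weeks. Each TAC reading was well above background, while the scanner's error of the sham signal was 100% at 2 weeks and 47.2% at 8 weeks. Against the lowest signal well above background on the sham arrays, the rise was at least 2.74-fold for the earlier pools (2 weeks) and at least 4.89-fold for the later ones (8 weeks). The ratios as measured, 3.47 and 3.19 on the log2 scale, placed it in the selection, and at 2 weeks the bound itself is under 4-fold. Within TAC the signal was 1.61-fold higher at 8 weeks than at 2 weeks. The gene spans chr6:38048483-38124586 on the minus strand, and its coding transcripts have 21 and 22 exons.

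Among 55667 probes with values on every array, 33 were well above background on the TAC arrays and over 4-fold higher at both times (0.0593%), and among probes with a gene name 25 of 29355 (0.0852%). At 2 weeks alone the shares were 0.591% of all probes and 0.47% of named ones, and at 8 weeks alone 0.715% and 0.719%. Of all probes, 0.717% read over 4-fold higher in the 8-week sham pool than in the 2-week sham pool, and 0.447% the other way round. Because the 4-fold rule picked the members, nothing is read from their place in these counts. Leaving lincRNA probes aside, 28 probes passed at both times, and on 13 of them, among these Aqp8, Lman1l and Tceal7, both sham readings were well above background. Ordered by the smaller fold as measured, Aqp8 stood at 17, Lman1l at 26 and Tceal7 at 28. Atp6v0a4 has no defined place because its folds are bounds. The same holds for the other probes in that order without both sham readings well above background, so these places hold only for ratios as measured. The probes just inside were Lman1l (4.12), Fzd2 (4.11) and Tceal7 (4.01), and just outside were Thbs1 (3.95) and Nrip3 (3.95), by ratios as measured. The sham readings of Fzd2 and Nrip3 were not well above background. With normexp background correction and an offset of 50, 0 of the 6 member probes passed 4-fold at both times: the log2 changes at 2 and 8 weeks were 1.62 and 2.61 for the rising Lman1l probe, 1.42 and 1.18 for Tceal7, 0.91 and 1.63 for Aqp8 on A_55_P2078955, and 0.52 and 0.71 for Atp6v0a4.

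**Figure D3:**
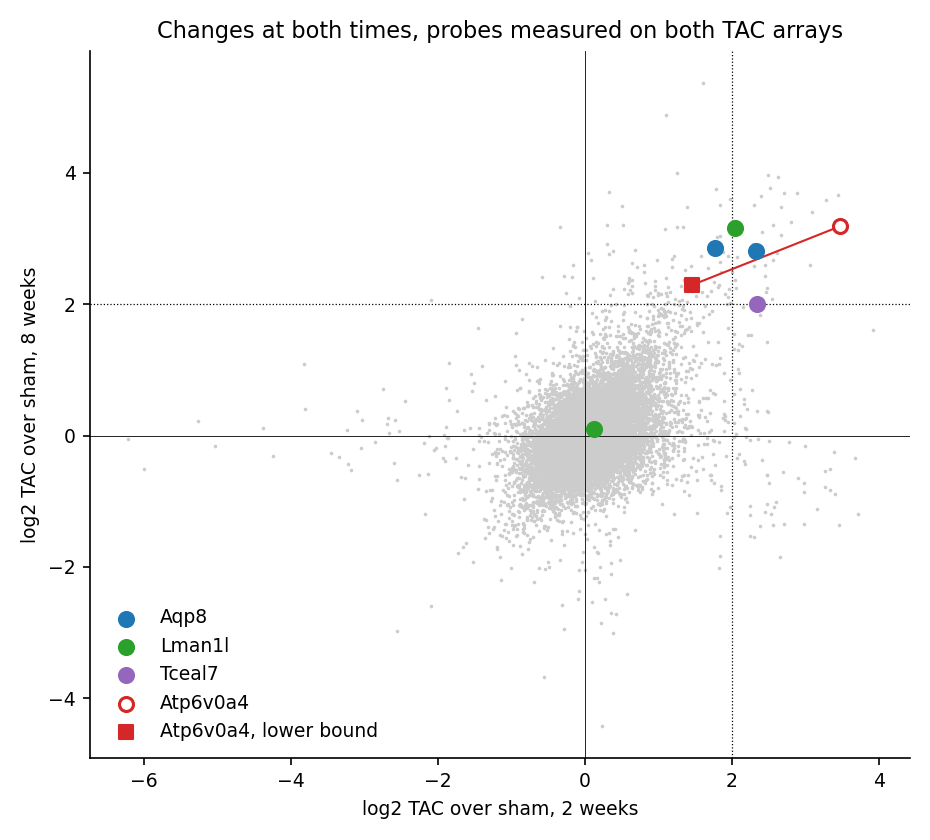
Log2 TAC over sham at 2 weeks (x axis) against 8 weeks (y axis) for probes well above background on both TAC arrays (grey) and the RefSeq probes of the 4 members (coloured), with dotted lines at 4-fold. The flat Lman1l probe sits near 0, the Aqp8 probe at 1.77 and 2.86 lies left of the 4-fold line, and a line joins the measured ratio of Atp6v0a4 to its lower bound at 1.45 and 2.29.

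Most relatives of the members stayed within 2-fold of sham at both times, as did most genes. Of 21659 genes, 369 were over 2-fold higher and 182 lower at 2 weeks, and 503 and 316 at 8 weeks. The members were picked for large ratios, so nothing is read from their difference to relatives in any of the 4 families. Of 12 aquaporins, each taken by its probe with the highest signal, 6 were well above background on every array and 6 (Mip, Aqp3, Aqp5, Aqp6, Aqp9 and Aqp12) on none. Aqp8 was the 1 gene over 2-fold higher at either time. That call took 1.72% of named probes (1.89% of all) at 2 weeks, 2.18% of named (1.89% of all) at 8 weeks, and 0.511% of named (0.372% of all) at both. The aquaporins had medians of -0.24 and -0.19 on the log2 scale at these times, beside -0.05 and -0.08 over all 21659 genes. Over the 6 aquaporins well above background on every array, the medians were 0.08 and -0.27, so the sign at 2 weeks turned with that filter and the list has no settled direction there. Aqp4, a water channel of muscle and glial membranes, read 0.474 in sham and 0.301 in TAC at 2 weeks, and 0.431 and 0.179 at 8 weeks. It was the 1 aquaporin over 2-fold lower at 8 weeks, where 1.5% of named probes were, with a log2 change of -1.26 and of -1.08 on its other probe. Aqp1, the water channel of capillary endothelium, read 92.5 and 116 at 2 weeks and 95.5 and 106 at 8 weeks, log2 changes of 0.33 and 0.15. Aqp7, which also passes glycerol, had log2 changes of 0.26 and -0.41.

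The ER cargo receptors held their level. All 6 of the list were well above background on every array, 0 passed 2-fold in either direction on the probe with the highest signal, which for Lman1l is the level one, and the medians were -0.01 and 0.10, the first of which took a positive sign under quantile normalization and in the deposited table. Lman1, the closest relative of Lman1l, read 11.1 and 9.96 at 2 weeks and 11.2 and 10.3 at 8 weeks. Its log2 changes were -0.16 and -0.11. Mcfd2, the partner of Lman1 in carrying coagulation factors, changed by -0.06 and 0.16, and Surf4, another cargo receptor, by 0.08 and -0.01.

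In the Tceal and Bex family, Tceal7, picked for its ratio, was the 1 of 12 genes over 2-fold at either time, and 10 were well above background on every array. The medians of -0.11 and -0.05 had no stable sign: at 2 weeks it was positive over the 10 measured genes (0.05) and under normexp, and at 8 weeks under 3 other scalings (0.04 to 0.12). Bex1, a neighbour of Tceal7 on the X chromosome, stayed just under 2-fold, with log2 changes of 0.99 and 0.85 on one probe and 0.88 and 0.83 on the other. Tceal5 changed by 0.77 and 0.57. Of the other genes of the list with a signal on every array, Tceal1, Tceal3, Tceal6 and Tceal8 had log2 changes between -0.45 and -0.05. Tceal9, Bex3 and Bex4 had log2 changes between -0.35 and 0.20.

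Atp6v0a4, also picked for its ratio, was the 1 gene of 25 V-ATPase subunits over 2-fold higher, also by its bounds, and 0 were over 2-fold lower. Of the list, 20 were well above background on every array, and the medians were -0.01 and 0.05, the first again positive under quantile normalization and in the deposited table. The other isoforms of subunit a are carried by most cells (Atp6v0a1 and Atp6v0a2) or concentrated in osteoclasts and macrophages (Tcirg1). Atp6v0a1 read 23.3 and 22.7 at 2 weeks and 24.1 and 25.3 at 8 weeks, and Atp6v0a2 changed by 0.05 and 0.06 on the log2 scale. Tcirg1 read 1.04 and 1.49 at 2 weeks and 1.02 and 1.25 at 8 weeks, log2 changes of 0.51 and 0.29. Atp6v1g3, a kidney isoform of subunit G, read 0.0416 in sham and 0.0660 in TAC at 2 weeks, and 0.0397 and 0.0674 at 8 weeks. Only its TAC readings were well above background, and all of them lay near the detection limit. Its log2 changes as measured were 0.66 and 0.76. The kidney subunit Atp6v1b1 was below background on all 4 arrays.

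**Figure D4:**
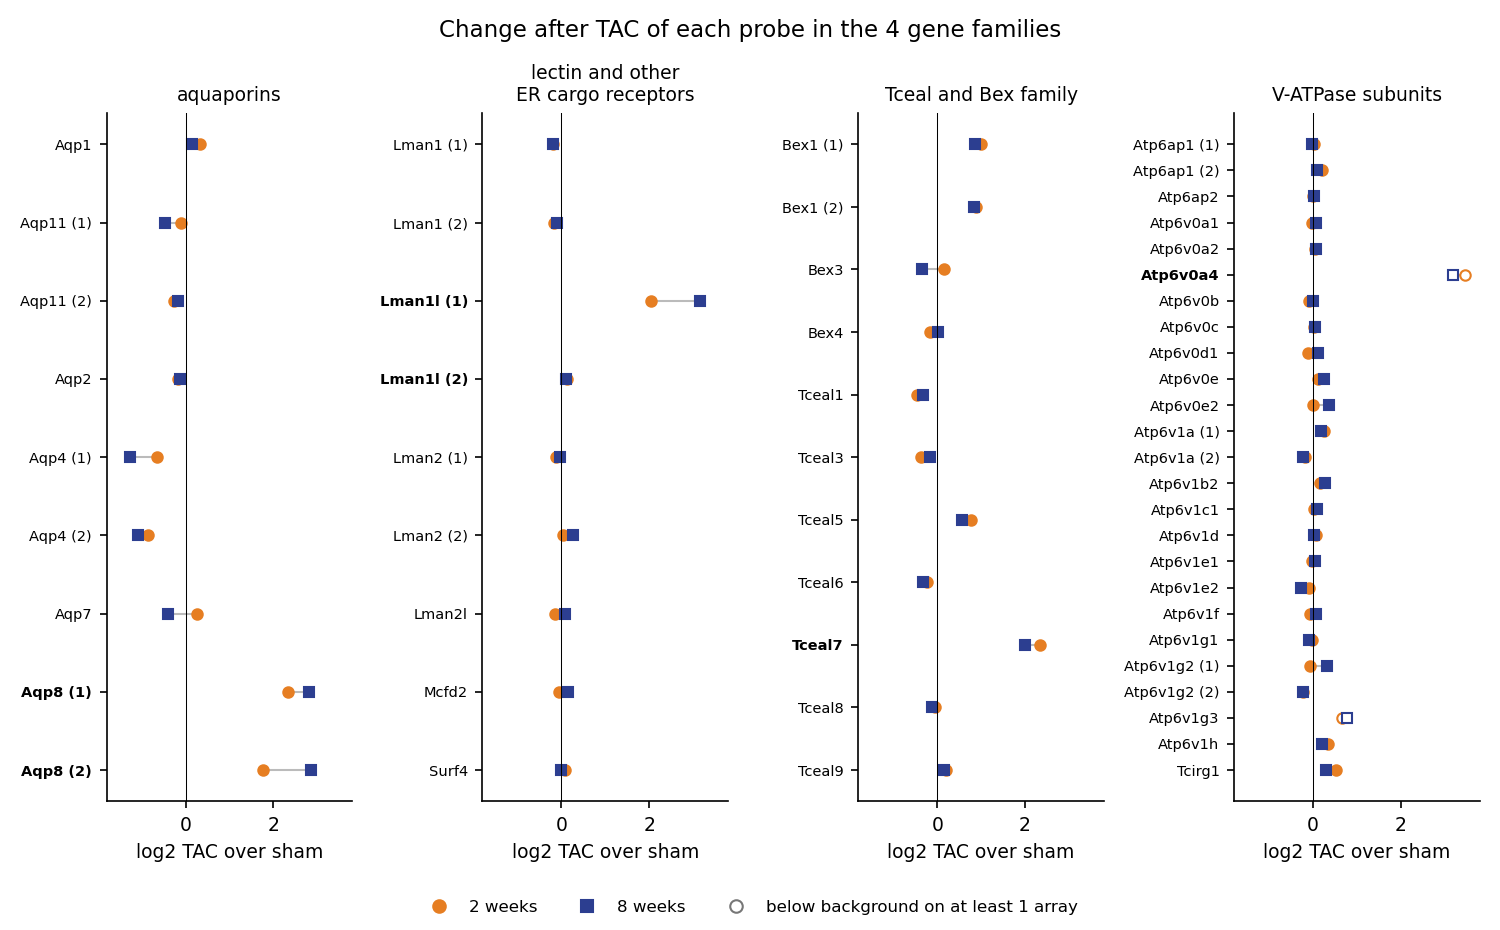
Log2 TAC over sham at 2 weeks (circles) and 8 weeks (squares) for every probe of the 4 families that was well above background on at least 1 array; members in bold, numbers in brackets for genes with several probes. Open symbols are measured ratios of probes below background on some array. Each member has a probe beyond 4-fold at 8 weeks, as the choice of members required, while most relatives lie near 0.

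Where they had a signal, the genes beside the members on the chromosome (GRCm38) moved less than the rising member probes. The members were picked for large ratios, so nothing is read from that difference. On either side of Aqp8, Lcmt1 changed by -0.10 and -0.09 (log2, 2 and 8 weeks) and Zkscan2 by 0.35 and -0.32. Cplx3, 752 bp from Lman1l, changed by 0.08 and 0.04, and Csk on its other side by 0.38 and 0.42. Tceal7 has Bex1 at 8528 bp from its RefSeq span, on the opposite strand, and Tceal9 (0.20 and 0.16) at 18980 bp. The GENCODE span of Tceal7 overlaps Bex1 by 735 bp. Tmem213 and D630045J12Rik, which overlap Atp6v0a4 by 6454 and 1413 bp, were below background on all arrays, so their change was not measured. Svopl at 1474 bp changed by 0.36 and 0.50. On the other side Zc3hav1l, well above background on 3 arrays, changed by 0.45 and -0.04.

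The patterns of the member probes over the 4 arrays were set beside each other. The likeness of a pair of probes was measured as the Euclidean distance between their log2 values after centring each on its own mean, so that 0 is the same pattern. Aqp8 on A_55_P2318584 and Lman1l on A_55_P1981110 were the closest pair of different members, at 0.40, nearer than the 0.68 between the Aqp8 probes. Tceal7 was at least 1.04 from every other member probe, and the flat Lman1l probe at least 2.10. The members were chosen on TAC over sham from these same arrays, so likeness among the rising probes was partly set by that choice. With 4 arrays these distances describe the pools and carry no test.

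Of 19591 gene probes well above background on both TAC arrays, the nearest to Aqp8 on A_55_P2318584 were Ankrd2, a stretch-responsive ankyrin repeat protein of muscle (0.25), Gsdma, a gasdermin (0.39), and Lman1l itself (0.40). Ankrd2 was also the nearest to the rising Lman1l probe (0.21), before Postn, the matrix protein periostin made by activated fibroblasts (0.25), and Nrip3 (0.33). For Atp6v0a4 no nearest genes are given, because both of its sham readings were not well above background. The probes nearest to Tceal7 were Igfbp2 (0.16), Ect2 (0.25) and Cenpm (0.30), and near Aqp8 on A_55_P2078955 were Col8a2 (0.19) and Itgbl1 (0.60). All 5 of these, and also Gsdma and Nrip3, were well above background on the 2 TAC arrays alone, so their distances rest partly on readings near the detection limit. The level Lman1l probe was nearest to Bcl2l2, Gspt1 and Kctd20, all within 0.014.

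Markers of cell types that are known to use these genes were read on the same arrays. Of 5 epithelial markers, Epcam, Krt8 and Cdh1 were below background on all 4 arrays, while Krt18 had log2 changes of 0.95 and 2.36. Krt19 was well above background on the TAC arrays alone, where it read 0.0582 and 0.0532, near the detection limit. In sham it read 0.0291 and 0.0120. The summed relative signal of the epithelial list went from 0.314 to 0.573 at 2 weeks and from 0.261 to 1.17 at 8 weeks. Most of that sum was Krt18, which read 0.239 and 0.462 at 2 weeks and 0.207 and 1.06 at 8 weeks. Of 5 exocrine pancreas markers 0 passed 2-fold, Prss1 and Pnlip were below background on all arrays, and the sum was between 0.402 and 0.499. For the intercalated cell of the kidney, 0 of 9 markers rose over 2-fold, and Atp6v1b1, Tmem213, Hepacam2 and Aqp6 were below background on all arrays. Slc26a4 read 0.0804 in sham at 8 weeks and was not well above background in TAC, and the sum of the list was between 1.60 and 1.97. Of 4 liver markers, Alb and Apoa1 were below background on all arrays, and 1 passed 2-fold: Ttr, the carrier transthyretin, read 0.0726 in sham and 0.162 in TAC at 8 weeks, a log2 change of 1.16.

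Other lists moved with the pools. Of 4 atrial cardiomyocyte markers, Myl7 read 0.170 and Sln 0.120 in sham at 8 weeks and 0.0303 and 0.0354 in TAC, where neither was well above background, while Myl4 changed by -0.01 and -0.52 and Nppa rose. The atrial sum, nearly all of it Nppa, went from 192 to 680 at 2 weeks and from 151 to 925 at 8 weeks. Of 5 fibroblast markers, 1 was over 2-fold higher at 2 weeks and 2 at 8 weeks (Postn, 2.29 and 2.92, and Col1a1, 0.97 and 1.20), and their sum went from 165 to 209 and from 189 to 253. The 4 macrophage markers, none past 2-fold, summed to 30.2 and 37.3 at 2 weeks and to 30.8 and 38.6 at 8 weeks. The osteoclast list, which includes Tcirg1 and of which Atp6v0d2 was below background on all arrays, summed to 3.90 and 5.67 and to 3.83 and 5.81. Their part in the rise of the 4 members was not tested. The muscle regulatory genes, to which Tceal7 has been tied in skeletal muscle, gave 0 of 9 past 2-fold, with Myod1, Myog, Myf5 and Mef2b below background on all arrays. Their medians were 0.02 and -0.11, and the sign turned with the median as scale or every probe on its own at 2 weeks, and without normalization at 8 weeks.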

How the data were processed

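Total heart RNA from sham and TAC mice (2 and 8 weeks) was labelled with Cy3 and hybridized to 4 Agilent arrays (mm9 probe annotation), 1 per condition. The authors deposited Feature Extraction output (version 10.7.3.1 in the file headers, 9.1 in the submitters' processing notes). The processed signal in it is the intensity of a spot after background subtraction and spatial detrending, with no scaling between arrays. The value table the authors deposited holds the same intensities times a constant per array (4.26, 4.35, 4.00 and 3.52). It is linear and not centred, with medians from 97.2 to 106.3 per array, and how the constants were chosen is not given in the sources used here.

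Here, log2 of the deposited intensity minus the array's log2 75th percentile was computed over 55681 non-control probes (206.5, 206.0, 221.2 and 248.5 in signal units for sham and TAC at 2 weeks and sham and TAC at 8 weeks). Outlier spots were left out. A RefSeq accession named 26570 of 27163 RefSeq probes. A probe was called when its ratio as measured was over 2-fold or 4-fold and it was well above background on the higher array. Against a sham signal not well above background, the bound used that signal or the array's lowest one well above background, whichever was higher. Errors are those of the scanner software, and the SD of the log2 ratio between spots of 1 probe, by signal level (0.086 to 0.61). Each member probe has 1 spot. The number of arrays limits the precision, and there were no tests.

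The members and lists were chosen with earlier results of these data known. Named genes are the members, genes of the lists over 2-fold, with the highest signal or closest by descent, the 3 probes on each side of 4-fold, the 3 nearest in pattern, and chromosomal neighbours. Some genes that this rule selects are not reported here. A few other members of the lists were named after their values were seen. All arrays shared a slide and a scan. Protein sequences were not used here, and gene coordinates are from GENCODE and RefSeq on GRCm38, with none converted. Alternatives were other scalings, quantile normalization, normexp (limma 3.58.1, R 4.3.3), the deposited table, other filters, outlier spots kept and every probe on its own. The calling was tried on simulated data with noise between spots only, where the changed probes were all well above background on every array. Differences between pools and changes of dim probes were not simulated, so this does not show how the calls hold there. Python 3.11.15, pandas 2.3.3, numpy 2.4.6 and matplotlib 3.10.9 were used.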

Additional observations from a re-analysis of the deposited data

Results flagged for a closer look

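Kdr is a receptor of endothelial growth factor, read here as an endothelial marker. On 1 of its 2 probes (A_51_P316553), its changes had opposite signs at the 2 times. The log2 change after TAC was 0.20 at 2 weeks and -0.21 at 8 weeks, a difference of -0.41. Each change is about as large as the scanner software's log2 error for Aqp8 on A_55_P2318584 (0.20). Each is larger than the spot SD at that signal (0.086). With 1 array per condition the difference was not tested. The other probe (A_55_P2094469) gave -0.04 and -0.08, with no change of direction.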

How the results depend on the processing

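No member probe changed direction under any alternative that was run. Family medians near 0 did change sign: aquaporins at 2 weeks (0.08 over genes measured on all arrays), the Tceal and Bex family at both times, ER cargo receptors and V-ATPase subunits at 2 weeks, and muscle regulatory genes at both times (0.06 at 8 weeks without normalization). With normexp background correction and an offset of 50, the rise of each of the 5 rising member probes was smaller: the log2 changes at 2 and 8 weeks were 1.63 and 2.71 for Aqp8 on A_55_P2318584, 0.91 and 1.63 for Aqp8 on A_55_P2078955, 1.62 and 2.61 for Lman1l on A_55_P1981110, 1.42 and 1.18 for Tceal7, and 0.52 and 0.71 for Atp6v0a4, and 8 probes in place of 33 were over 4-fold at both times and 46 in place of 207 over 2-fold. An offset adds the same amount to both signals of a ratio, which by construction shrinks the ratio of a low signal most. Without normalization between arrays, the 8-week values were 3.02 for Aqp8 on A_55_P2318584, 3.32 for Lman1l on A_55_P1981110 and 0.27 for Lman1l on A_55_P1991001, and the median of 29262 measured probes at 8 weeks went from -0.04 to 0.13. Atp6v0a4 was 3.47 and 3.19 at the 2 times as a ratio with no bound. It had the same values with the positive-and-significant flag in place of well above background. The sham reading at 2 weeks did not carry that flag either, so the 2-week value is not a measured ratio under it. Requiring both arrays of a pair well above background left 15 probes over 4-fold and 106 over 2-fold at both times, and no filter on dim probes gave 375 over 2-fold. Under the deposited table, the median as scale, quantile normalization and outlier spots kept, each of 26 values moved by less than the spread between spots or by under 1.5 times for counts. Spots on their own could not give other values, because each member probe has 1 spot, and leaving out a replicate was not possible. No paired analysis was possible because there is 1 array per condition. The signal over background limits Atp6v0a4 to a lower bound, and the lower Aqp8 probe to a scanner error of 20.9% on the sham array at 2 weeks.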
